A study of Mus musculus with 8 samples.

Results

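The regions described here carried a strong but short stretch of acetylated histone H3 (H3ac) in RAW 264.7, a line of mouse cells that resemble macrophages, under the treatment named Gel. They were chosen by measured values: peaks of the 4 H3ac libraries on chromosomes 1 to 19, X and Y were merged wherever they overlapped by at least 1 bp, and a merged region was kept where each Gel library had a single peak of 800 bp or less with a fold enrichment of 6 or more. The fold enrichment is the authors' own value for each peak and equals the summit fragments plus 1 over the local background plus 1. Its scale depends on the depth of the list. A fold of 6 at the library background corresponds to a summit 7.08 and 7.17 times that background in the Gel lists and 7.45 and 8.03 times in the CuNZ@Gel lists, so folds are compared between regions of one list. Of 81544 merged regions, 39317 had a peak in both Gel libraries, and 13631 of these reached a fold of 6 in both. The narrow regions numbered 1780, which is 4.53% of the regions with both Gel peaks and 13.1% of those past the fold limit. A further 11068 regions past the fold limit were covered over more than 800 bp in both Gel libraries and are called the wider regions. The other 783 fell between: 767 were over the width limit in 1 Gel library only, and 16 had more than 1 peak in a Gel library with neither library over the limit.

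Acetylation of the tails of histone H3 loosens the hold of nucleosomes on DNA and is read by bromodomain proteins. In macrophages, as in other cells, it marks active promoters and enhancers, and an antibody against acetylated H3 reports both kinds of element without telling them apart. A peak of this mark is usually as wide as the row of acetylated nucleosomes that flank the element, so a short peak with a high summit spans few nucleosomes.

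The study compared Gel with CuNZ@Gel, 2 immunoprecipitated libraries each, in RAW 264.7 cells kept on tissue culture plastic and given extracts for 48 h. Cells were fixed for 10 min in 1% formaldehyde and the chromatin was sheared to 150 to 350 bp. A single protocol text serves every sample and mentions CuNZ@Gel extracts only, so the Gel cells are known by their treatment label, and the labels do not spell out the abbreviation CuNZ. The 4 input libraries are labelled but no file of theirs was used here. The labels do not tell whether the libraries of a treatment stem from different cultures, and their spread may therefore be technical only. The peak lists name no genes, so the macrophage label was not checked against marker genes, and no region is given a gene name. All positions are on mouse build GRCm39.

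The CuNZ@Gel lists were shorter and shallower than the Gel lists, and this bears on every comparison below. On the chromosomes the Gel lists held 58612 and 60483 peaks and the CuNZ@Gel lists 40075 and 34693. The background of a list in fragments, solved from the deposited folds and p-values, served as its depth and was 4.62 and 4.28 in Gel and 3.45 and 2.46 in CuNZ@Gel. At that background the lowest summit that was called held 13 and 12 fragments in the Gel lists and 11 and 9 in the CuNZ@Gel lists. The shortest peak of a list spanned 156 to 169 bp.

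In the Gel libraries, which chose them, the narrow regions filled the range up to the limits. Their median width was 578 bp in Gel replicate 1 and 586 bp in replicate 2, with quartiles of 456 and 689 bp and of 450.75 and 690 bp. The shortest spanned 166 bp in Gel replicate 1 and 177 bp in replicate 2, close to the shortest peaks called anywhere in those lists. Their median fold was 8.19 in the first Gel list and 7.95 in the second, and their median summit held 46 and 43 fragments. Of the 1780, 871 (48.9%) had a mean Gel fold under 8, 632 lay between 8 and 12, 222 between 12 and 20, and 55 reached 20 or more. The wider regions were stronger as a class, with median widths of 1695 and 1688 bp and median folds of 13.5 and 13.2. For that reason they were weighted to the narrow regions' share of 8 classes of mean Gel fold wherever the text says "of like fold".

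The values nearest to the limits are given as a description. Inside the width limit, chr2:115485433-115486256 spanned 800 and 799 bp in the Gel libraries and 812 and 783 bp in the CuNZ@Gel libraries. Outside it, chr12:104718520-104719330 spanned 801 and 782 bp in Gel and 772 and 536 bp in CuNZ@Gel, and chr2:132105132-132106295 spanned 794 and 801 bp in Gel and 849 and 1164 bp in CuNZ@Gel. Each of the 3 regions nearest to the width limit on either side had a peak in all 4 libraries. At the fold limit, chr1:143860701-143861236 lay just inside with folds of 7.12 and 6.00 in the Gel lists, and spanned 202 and 174 bp in CuNZ@Gel. Just outside, chr13:112802590-112803411 had folds of 7.57 and 6.00, the second falling short by less than the rounding, and had no peak in CuNZ@Gel replicate 2.

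Most narrow regions kept a peak under CuNZ@Gel, but fewer did so than wider regions of like fold. A peak anywhere in the merged region counted, so a wider region gives more room for one. What part this had in the difference was not tested. Of the 1780, 1610 (90.4%) had a peak in both CuNZ@Gel libraries, 137 (7.70%) in 1 of them and 33 (1.85%) in neither. Over all regions with both Gel peaks, most of them under the fold limit, 24.9% lacked a peak in both CuNZ@Gel libraries. Among wider regions of like fold the shares were 98.1% in both, 1.59% in 1 and 0.270% in neither. Of the 137 regions with a single CuNZ@Gel peak, 94 had it in replicate 1, the deeper library, and 43 in replicate 2.

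The same order was seen in each library. In CuNZ@Gel replicate 1, 95.7% of narrow regions and 99.4% of wider regions of like fold had a peak, a difference of -3.66 percentage points. In CuNZ@Gel replicate 2 the shares were 92.9% and 98.5%, a difference of -5.61 points. The mean difference was -4.64 ± 1.38 points (SD, n = 2 libraries), larger than the spread between the libraries. It ran from -2.46 points at a fold limit of 8 to -7.80 at a width limit of 600 bp, and was -7.44 without Gel replicate 2 in the choice. With 2 libraries an exact sign permutation test cannot give a two-sided p below 0.5, and regions of a library are not replicates, so no further p is given.

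The share without a CuNZ@Gel peak was highest at the lowest Gel folds, for narrow and for wider regions. In each class of fold the narrow regions lay at or above the wider regions. The fall was not steady: in CuNZ@Gel replicate 1 the narrow share was 3.24% at 8 to 9 and 4.35% at 9 to 10. At a mean Gel fold of 6 to 7, 9.09% of 407 narrow regions had no peak in CuNZ@Gel replicate 1 and 14.3% had none in replicate 2. The 555 wider regions of that fold lacked one in 2.16% and 3.42%. At 7 to 8, 4.09% and 7.76% of 464 narrow regions lacked a peak, against 0.225% and 2.37% of 887 wider regions. Losses thus thinned out quickly with strength, and from a fold of 9 upward wider regions almost always kept their peaks. Between 10 and 12, 1.55% and 4.15% of 193 narrow regions were without a peak, against 0% and 0.0693% of 1444 wider regions. From a fold of 12 upward, 5 of the 277 narrow regions lacked 1 CuNZ@Gel peak and none lacked both.

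**Figure D1:**
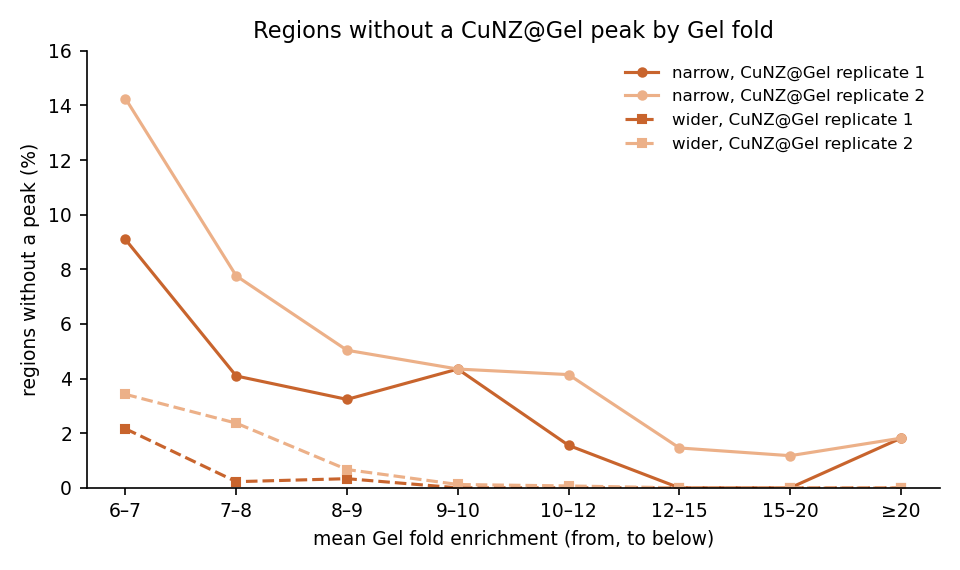
Share of regions without a peak (y axis, %) in each CuNZ@Gel library by class of mean Gel fold enrichment (x axis), for narrow regions (circles) and wider regions (squares). Narrow regions start at 9.09% and 14.3% in the class from 6 to 7, where wider regions start at 2.16% and 3.42%, and at a fold of 20 or more the narrow regions stand at 1.82% in each library and the wider regions at 0%.

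Width in Gel went with presence under CuNZ@Gel among the narrow regions themselves, where a longer region again gives more room for a peak. Of the 43 narrow regions with a mean Gel width of 250 bp or less, 30.2% had no peak in CuNZ@Gel replicate 1 and 34.9% had none in replicate 2. Among the 50 between 250 and 300 bp, 7 lacked a peak in replicate 1 and 10 in replicate 2. Among the 180 between 300 and 400 bp the shares were 8.89% and 14.4%. The shares went on falling through each further step of 100 bp. They reached 0.852% and 1.99% in the 352 regions between 700 and 800 bp. Wider regions were weighted to the folds of all narrow regions, where each step of narrow regions keeps its own folds. They stood at 0.758% and 1.87% between 800 and 1200 bp and at 0.893% and 1.86% between 1200 and 1600 bp. In wider regions above 2400 bp, 0% and 0.457% lacked a peak, where the smallest fold class held 29 regions.

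**Figure D2:**
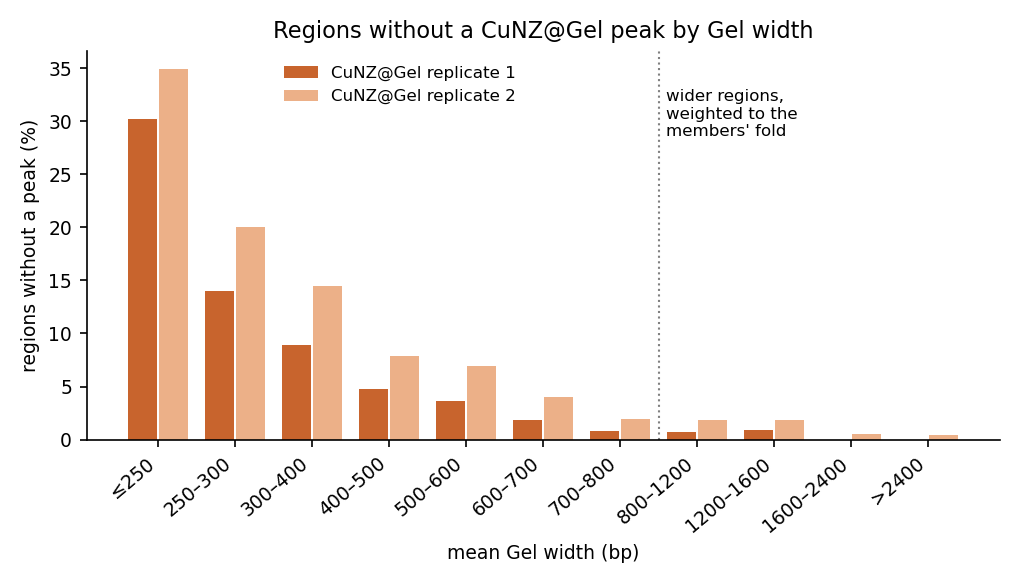
Share of regions without a peak (y axis, %) in each CuNZ@Gel library by mean Gel width (x axis, bp), with the wider regions weighted to the narrow regions' fold. The bars fall from 30.2% and 34.9% at 250 bp or less to 0.852% and 1.99% between 700 and 800 bp, and the weighted wider regions from 800 to 1200 bp stand at 0.758% and 1.87%.

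The fall with width was also present within a range of fold. At folds of 6 to 8, 17.2% and 22.7% of the 128 regions up to 400 bp lacked a peak in CuNZ@Gel replicates 1 and 2. Between 400 and 600 bp 6.27% and 12.0% of 367 did, and between 600 and 800 bp 2.93% and 5.59% of 376. At folds of 8 to 12 the 86 regions up to 400 bp lacked a peak in 15.1% and 22.1%, nearly as often as their weaker counterparts, and the 307 regions between 600 and 800 bp in 0.326% and 1.30%. At folds of 12 or more the 59 shortest lacked one in 1.69% and 5.08%. In these data a short region of fold 8 to 12 was therefore without a CuNZ@Gel peak more often than a longer region of fold 6 to 8.

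The depth of the lists and their shortest peaks stand beside these shares. Had each narrow region kept its mean Gel height over background, it would have held at least 24.8 summit fragments in CuNZ@Gel replicate 1 and 17.7 in replicate 2. Both values lie above the lowest summits called there at library background, 11 and 9 fragments, but the rule fixed this beforehand. A fold of 6 at library background already asks for a Gel height of 7.08 and 7.17 times that background. The expected numbers rest on the Gel heights that chose the regions. Over all narrow regions the median of this expected number was 34.3 in CuNZ@Gel replicate 1 and 24.4 in replicate 2. For the 76 regions without a peak in replicate 1 it was 30.0, and for the 127 without one in replicate 2 it was 21.2. Where a peak was present, the median summit held 28 and 21 fragments. In every list very short peaks were common: the share of peaks of 250 bp or less was 23.2% and 23.0% in the Gel lists and 26.8% and 26.1% in the CuNZ@Gel lists. What part depth or the shortest length of a called peak had in the missing peaks was not tested.

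Where a narrow region kept its peak, the peak was shorter than in Gel in most cases. The median width was 455 bp in CuNZ@Gel replicate 1, with quartiles of 338.75 and 571 bp, and 404 bp in replicate 2, with quartiles of 295 and 534 bp. Against 578 and 586 bp in Gel, the medians of both CuNZ@Gel libraries lay below both Gel medians. Wider regions of like fold had median widths of 1024 and 919 bp in the same libraries. The narrow regions thus stayed -569 and -515 bp below them, a mean difference of -542 ± 38.2 bp (SD, n = 2 libraries). The Gel widths set both classes, so a difference of this sign follows from the choice of regions. The size of the difference depends on where the wider regions begin. It was -1006 bp with wider taken as over 1500 bp, and -830.5 bp with all wider regions unweighted. Few narrow regions passed the width limit: 29 exceeded 800 bp in CuNZ@Gel replicate 1 and 15 in replicate 2, and 18 and 13 held more than 1 peak there. Of the 1610 with peaks in all 4 libraries, 131 (8.14%) had a mean CuNZ@Gel width above their mean Gel width.

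Changes against the Gel width are given as a description only, because the Gel widths set both classes. The median ratio of the CuNZ@Gel width to the mean Gel width was 0.819 in replicate 1 and 0.753 in replicate 2 for narrow regions. For wider regions of like fold it was 0.757 and 0.668. In bases the median change was -101 and -141.5 bp for narrow regions and -348 and -471.5 bp for wider ones of like fold. Of the 1610 narrow regions with peaks in all 4 libraries, 1062 (66.0%) had CuNZ@Gel widths that were both below the smaller Gel width. Over all regions with 4 peaks this share was 74.5%, and among wider regions of like fold it was 83.8%. The opposite pattern, wider in both CuNZ@Gel libraries, occurred in 31 (1.93%), against 1.26% over all regions. Nothing is read from these ratios and shares.

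Where a peak was called, the enrichment of narrow regions was slightly below that of wider regions in each list. Regions without a peak, more common among the narrow ones, have no fold there and were left out. In the list of CuNZ@Gel replicate 1 the narrow regions had a median fold of 6.30 and wider regions of like fold 6.75, and in replicate 2 the values were 6.07 and 6.36. The differences of -0.450 and -0.289, each on the scale of its own list, averaged -0.370 ± 0.114 (SD, n = 2 libraries). Ranked within their list, narrow regions stood at the median percentile 70.5 in replicate 1 and 66.0 in replicate 2, and wider regions of like fold at 73.2 and 68.3. A fold of 6 was reached by 58.3% of the narrow regions' peaks in replicate 1 and by 53.5% in replicate 2. Summit height, the summit fragments divided by the library background, had medians of 9.96 and 10.0 in Gel and 8.12 and 8.54 in CuNZ@Gel. The fold limit was applied to the Gel lists only, so nothing is read from the lower CuNZ@Gel heights. The local background exceeded 1.2 times the library's in 7.36% and 8.54% of the Gel peaks and in 8.33% and 9.13% of the CuNZ@Gel peaks, a like share in all 4 libraries.

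Choosing by 1 Gel library alone leaves the other Gel library as a sample that the rule did not use, beside the CuNZ@Gel libraries. The other Gel library is still the deeper one and its list the longer one. Gel replicate 1 alone chose 3057 regions with a median width of 593 bp. Of these, 0.851% had no peak in Gel replicate 2, while 7.13% had none in CuNZ@Gel replicate 1 and 12.1% none in replicate 2. Their median width was 607 bp in Gel replicate 2 and 457 and 415 bp in CuNZ@Gel. The share narrower than in the choosing library was 43.5% in the other Gel library, 81.0% in CuNZ@Gel replicate 1 and 88.4% in replicate 2.

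Gel replicate 2 as the choosing library gave much the same picture. It chose 2906 regions with a median of 600 bp, of which 0.310% had no peak in Gel replicate 1, 5.78% none in CuNZ@Gel replicate 1 and 11.0% none in replicate 2. Their medians were 600 bp in the other Gel library and 462.5 and 410 bp in CuNZ@Gel, and 43.7%, 81.0% and 87.7% were narrower than in the choosing library. In both directions the median was as high or higher in the second Gel library and lower in each CuNZ@Gel library. A width of 800 bp or less was found for 84.1% and 84.7% of the regions with a peak in the second Gel library, and for 96.3% to 97.8% in the CuNZ@Gel libraries. Wider regions of like fold, chosen by the same library, lacked a peak in at most 0.0214% in the other Gel library and in 1.05% to 3.31% in the CuNZ@Gel libraries.

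Many narrow regions lay beside other H3ac regions. The nearest region with both Gel peaks was within 1 kb of 950 narrow regions (53.4%), against 40.4% of wider regions of like fold, and the median distance was 570 bp against 2208 bp. For 527 of the 1780 (29.6%) that near neighbour was a wider region, against 14.8% of wider regions of like fold. A further 439 (24.7%) had their nearest neighbour at 1 to 10 kb and 391 (22.0%) at 10 kb or more. Of these 3 sets, in order of distance, 4.11%, 5.69% and 3.07% lacked a peak in CuNZ@Gel replicate 1, and 6.00%, 8.20% and 8.70% in replicate 2. The share rose with distance in replicate 2 only. Another narrow region lay within 10 kb of 217 (12.2%) and within 1 kb of 107 (6.01%), so members are not all independent places on the genome.

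The summits of narrow regions stayed in place. Between the Gel libraries the summit differed by a median of 24 bp, against 53 bp in wider regions of like fold. The CuNZ@Gel summit lay a median of 28 bp in replicate 1 and 32.5 bp in replicate 2 from the middle of the Gel summits. It was within 100 bp in 83.5% and 80.9% of narrow regions. The shares were 52.1% and 49.2% in wider regions of like fold, which have more room for a summit to move. The widths of narrow regions in the Gel libraries differed from each other by a median of 9.40% of their mean, close to the 8.26% of wider regions of like fold.

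Every chromosome but Y held narrow regions. Their share of the regions past the fold limit ran from 9.46% on chromosome 16 to 21.6% on X, where 58 of 269 were narrow. X also had the weakest regions of this set, with a median Gel fold of 9.26, and the make-up of its fold classes alone gives 18.4%. Chromosome 12 followed with 17.0%, where its fold classes give 13.5%.

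The 10 narrow regions with the highest mean Gel fold had peaks in all 4 libraries. The first, chr11:88785376-88785863, spanned 488 and 473 bp in Gel and 394 and 390 bp in CuNZ@Gel. Its summit held 666 and 586 fragments in Gel and 286 and 184 in CuNZ@Gel, which is 144 and 137 times the library background against 82.9 and 74.8 times. Its local background was itself raised, to 1.95 and 1.68 times the library's in Gel and 1.14 and 1.42 times in CuNZ@Gel. The nearest region with both Gel peaks, chr11:88782473-88782716, was also narrow, lay 2659 bp away and lacked a CuNZ@Gel peak altogether. The strongest narrow region thus had one of the lost ones as its neighbour.

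The second, chr5:122334191-122334697, spanned 503 and 414 bp in Gel and 339 and 396 bp in CuNZ@Gel, with summits 102 and 101 times the library background in Gel and 48.1 and 65.0 times in CuNZ@Gel. The other 8 were lower, at 42.1 to 51.9 times in the Gel libraries and at most 41.9 times in the CuNZ@Gel libraries. Ranks 3 and 7 were neighbours on chromosome 11. The former, chr11:87338732-87339583, spanned 732 and 698 bp in Gel and 674 and 798 bp in CuNZ@Gel, and the latter, chr11:87333357-87334079, 4652 bp away, spanned 709 and 622 bp and then 644 and 501 bp. Several of the 10 hardly changed width: chr13:51356669-51357101 spanned 433 and 430 bp in Gel and 422 and 425 bp in CuNZ@Gel, and stood 100774 bp from the nearest region with both Gel peaks. The lowest heights among the 10 under CuNZ@Gel belonged to chr12:69596342-69596982, whose summit held 207 and 189 fragments in Gel and 69 and 58 in CuNZ@Gel. In all 10 both CuNZ@Gel heights were below both Gel heights, in regions picked for their Gel fold. The same count was not made over all narrow regions, so nothing particular to these 10 is read from it. Over all narrow regions the median heights were 9.96 and 10.0 in Gel and, where a peak was called, 8.12 and 8.54 in CuNZ@Gel. Among all wider regions the medians were 16.7 and 16.6 in Gel and 12.8 and 13.0 in CuNZ@Gel. In both classes the fold limit was applied to the Gel libraries only, so nothing is read from the lower CuNZ@Gel medians.

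**Figure D3:**
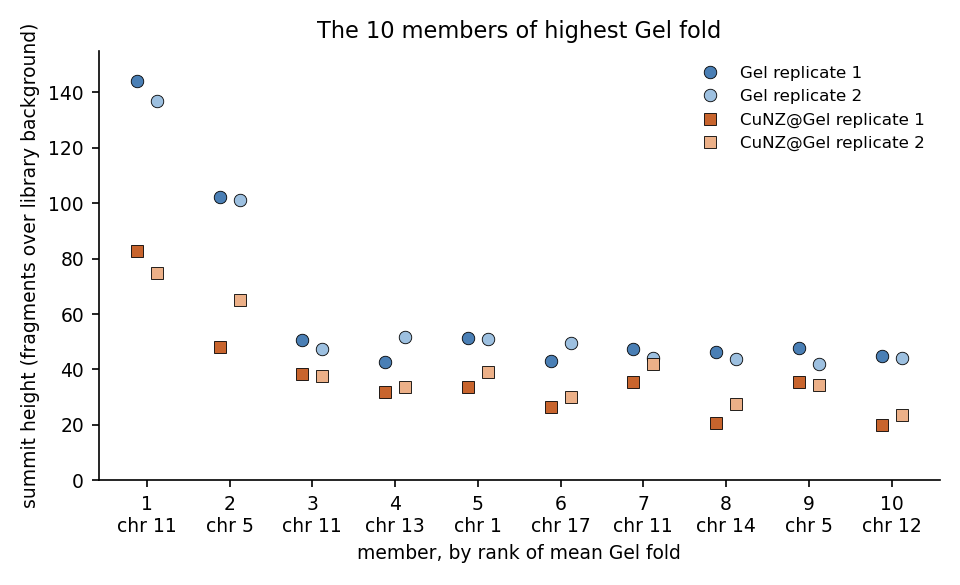
Summit height, in fragments over the library background (y axis), of the 10 narrow regions with the highest mean Gel fold (x axis, rank and chromosome), with 1 point per library. The CuNZ@Gel points (squares) lie below the Gel points (circles) at each rank, with 82.9 and 74.8 against 144 and 137 at rank 1 and at most 41.9 against at least 42.1 from rank 3 on. The regions were picked for their Gel fold, and the same count was not made over all narrow regions.

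A small set was both very short and strong. Of the 93 narrow regions of 300 bp or less, 28 had a mean Gel fold of 12 or more, a grouping made after the values were seen. They lay on 14 chromosomes and had median widths of 254 and 250 bp in Gel and 219 and 210 bp in CuNZ@Gel. In the 4 lists their median summits held 101.5, 94.5, 52 and 34 fragments. Of the 28, 25 had both CuNZ@Gel peaks, 3 had 1 and 0 had none.

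On chromosome 1, 4 of these 28 stood in a row within 7504 bp, from 171309137 to 171316640. The first, chr1:171309137-171309320, spanned 175 and 184 bp in Gel and 175 bp in each CuNZ@Gel library, with summits of 120, 99, 54 and 40 fragments. The second, chr1:171311153-171311412, was the tallest, with 208 and 177 fragments in Gel and 101 and 54 in CuNZ@Gel, over 260, 258, 255 and 243 bp. Both were thus almost of one width in all 4 libraries. The third, chr1:171314391-171314602, held 113 and 95 fragments in Gel and 56 in CuNZ@Gel replicate 1, and had no peak in replicate 2. The fourth, chr1:171316380-171316640, held 117 and 113 fragments in Gel and 38 in CuNZ@Gel replicate 1, and also had no peak in replicate 2. Only 2 narrow regions of fold 20 or more lacked a CuNZ@Gel peak. The fourth of this row was one, and chr5:23912039-23912223 the other, with 122 and 102 fragments in Gel, no peak in CuNZ@Gel replicate 1 and 32 fragments in replicate 2.

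The 33 narrow regions without any CuNZ@Gel peak were short and of modest fold. Their mean Gel width had a median of 349 bp and ran from 173.5 to 768 bp, and 19 of them were 400 bp or less. Their mean Gel fold ran from 6.06 to 11.1 with a median of 6.90, and 11 reached 8. Their summits held 31 to 61 fragments in the Gel libraries. The fold limit itself asks for 32.7 and 30.7 fragments there at library background, so the lower end follows from the rule. The Gel summits of a region lay a median of 14 bp apart, so both Gel libraries placed the peak at one spot. Of the 33, 18 had a region with both Gel peaks within 1 kb, a share close to the 53.4% of all narrow regions. Peaks in both CuNZ@Gel libraries were present in 13 of those neighbours. Of all 39317 regions with both Gel peaks, 21909 had a peak in all 4 libraries. The share over the neighbours of all narrow regions was not counted, so nothing is read from the 13.

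The strongest of the 33 was chr8:124160120-124160373, which spanned 254 bp in each Gel library with summits of 59 and 60 fragments. Next came chr14:54770225-54770526, with 274 and 302 bp and 50 and 58 fragments, and chr8:38754922-38755174, with 243 and 239 bp and 45 and 61 fragments. The latter stood alone, 388032 bp from the nearest region with both Gel peaks. The longest of the 33 was chr5:148990025-148990812, with 767 and 769 bp and 49 and 51 fragments. It lay 166 bp from a wider region, chr5:148987360-148989858, that had peaks in both CuNZ@Gel libraries. The shortest, chr4:32794547-32794727, spanned 166 and 181 bp with 52 and 48 fragments, and lay 594 bp from another such wider region. The other 5 of the 10 strongest had mean Gel folds from 8.09 to 9.19 and lay on chromosomes 10, 10, 7, 12 and 1.

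Among the 1610 narrow regions with 4 peaks, the ratio of the mean CuNZ@Gel width to the mean Gel width had a median of 0.789 and quartiles of 0.656 and 0.902. It was below 0.5 in 100 regions (6.21%) and above 1 in 131 (8.14%). The lowest ratio, 0.232, was at chr4:143704778-143705507, with 727 and 698 bp in Gel and 164 and 167 bp in CuNZ@Gel, where its summit held 33 and 38 and then 16 and 15 fragments. The other 4 regions of lowest ratio had 617 to 795 bp in Gel and 162 to 237 bp in CuNZ@Gel. All 5 had mean Gel folds between 6.70 and 7.20, near the lower limit. At the other end, chr7:45045442-45046401 spanned 627 and 329 bp in Gel and 960 and 879 bp in CuNZ@Gel, a ratio of 1.92. Next came chr5:31359852-31360358, with 186 and 377 bp in Gel and 483 and 429 bp in CuNZ@Gel. At both of these the Gel libraries differed widely from each other, although both CuNZ@Gel widths lay above both Gel widths. The third, chr1:87567404-87568710, spanned 690 and 576 bp in Gel and 1013 and 937 bp in CuNZ@Gel. Its local background was 0.999 and 1.05 times the library's in Gel and 1.46 and 1.42 times in CuNZ@Gel. These regions were picked for their width ratios, so groups that lie apart follow from the choice.

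Narrow strong peaks were more numerous in the CuNZ@Gel lists. Counting in each list every peak of 800 bp or less with a fold of 6 or more, the Gel lists held 3397 and 3215 and the CuNZ@Gel lists 4102 and 4582. The means were 3306 ± 129 in Gel and 4342 ± 339 in CuNZ@Gel (SD, n = 2 libraries each), a difference of 1036 with no overlap between the groups. Such peaks made up 21.8% and 20.8% of all peaks of fold 6 or more in Gel and 31.7% and 36.6% in CuNZ@Gel, or 21.3 ± 0.655% against 34.1 ± 3.47%. Each difference exceeded the spread between replicates, and its exact two-sided permutation p was 0.333, the smallest that 2 against 2 libraries can give. The lists differ in depth, on which the scale of the fold depends. With a summit height of 8 times the library background in place of the fold limit, an alternative chosen after seeing the data, the counts were 2833 and 2657 in Gel and 3722 and 5128 in CuNZ@Gel. What further part depth has in the widths and counts was not tested.

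The CuNZ@Gel peaks that met these limits stood mostly in regions that were wide in Gel. Of the 4102 in CuNZ@Gel replicate 1, 971 lay in the narrow regions and 2081 (50.7%) in the wider regions. Of the 4582 in replicate 2, 873 lay in the narrow and 2699 (58.9%) in the wider regions. In the Gel lists only 269 and 241 such peaks lay in the wider regions, but there the class itself was set by the Gel widths. Defining wide by 1 Gel library alone removes that. Of the peaks of this kind in Gel replicate 2, 18.9% lay in regions wide in Gel replicate 1, against 57.0% and 64.7% of those in CuNZ@Gel replicates 1 and 2. With Gel replicate 2 defining wide, the shares were 19.8% for Gel replicate 1 and 58.0% and 65.0% for CuNZ@Gel. A single peak of 800 bp or less covered 3.91% of the 12188 regions wide in Gel replicate 1 in the other Gel library, and 16.3% and 22.3% of them in the CuNZ@Gel libraries. More than 1 peak stood in 11.1% of them in the other Gel library and in 29.5% and 30.8% in the CuNZ@Gel libraries. Of the narrow strong peaks in regions wide in Gel replicate 1, 43.0% in Gel replicate 2 and 54.1% and 49.8% in CuNZ@Gel lay in a region with more than 1 peak of that list, so that about as many shared their region with another peak as stood alone.

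**Figure D4:**
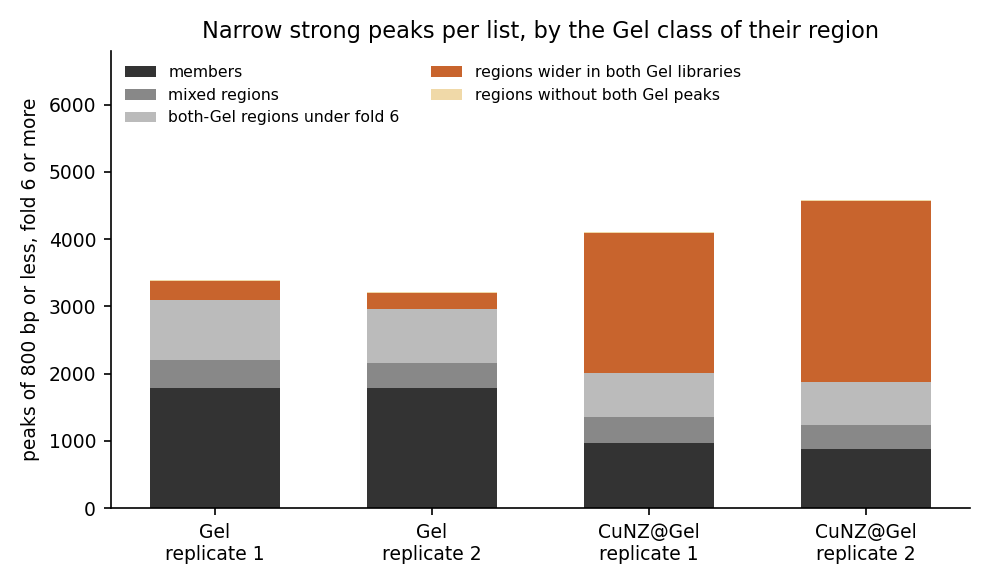
Number of peaks of 800 bp or less with a fold of 6 or more in each list (y axis, peaks), stacked by the Gel class of the region they lie in. The Gel lists hold 3397 and 3215 and the CuNZ@Gel lists 4102 and 4582, with 2081 and 2699 of the latter in regions that are wide in Gel.

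The limits applied to the CuNZ@Gel libraries in place of the Gel libraries gave 1508 regions. Of these, 672 (44.6%) were narrow regions by the Gel libraries as well, which is 37.8% of the 1780. Another 468 (31.0%) were wider regions in Gel, 228 were over a limit in 1 Gel library only or had several Gel peaks, and 140 did not reach the fold limit in both Gel libraries. Nearly all of them, 1507 of 1508, had a peak in both Gel libraries.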

How the data were processed

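H3ac was measured in 4 libraries, 2 each for Gel and CuNZ@Gel. The submitters' processing notes list the build GRCm39 and the tools deepTools 3.5.6, MACS2 2.2.8, SAMtools 1.17 and fastp. Neither the aligner nor the options of peak calling are known from the sources used here. The authors deposited 1 peak list per library, and 2 group lists that were not used here. In the deposited lists the score is the −log10 q scaled by the caller, and the fold enrichment is a ratio of summit to local background. The deposited −log10 p and −log10 q values came from the caller's Poisson model.

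Peaks were merged across lists at 1 bp of overlap, and Gel fold was averaged over both Gel lists. Wider regions were weighted to the narrow regions' share of 8 classes of mean Gel fold (from 6, 7, 8, 9, 10, 12, 15 and 20). Fold and p were solved for summit fragments and background, which gave whole fragments for 100% of peaks at a relative tolerance of 0.0001; the script was tested on simulated data. Intervals between libraries are SD over 2 libraries. Counts per list were compared by an exact permutation test over 6 assignments (Python 3.11.15, NumPy 2.4.6, pandas 2.3.3). The files hold no read totals, so depth is known only through the background. The narrow regions and all lists were chosen with earlier results of these data known. Named regions follow a written rule: the 10 of highest mean Gel fold, the 10 strongest without a CuNZ@Gel peak, the 5 lowest and 5 highest width ratios, and the 3 nearest each side of the width limit. Those at the fold limit, those of fold 20 or more lacking a peak and the 28 shortest strong regions were chosen after their values were seen. Gene names, gene lists, markers, motifs and sequences were planned but left out, because no GRCm39 genome or annotation was used here. Alternatives changed the limits, the merging, the peak threshold, the classes of fold, the definition of wider and the libraries.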

Additional observations from a re-analysis of the deposited data

Results flagged for a closer look

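Peaks outside chromosomes 1 to 19, X and Y were not part of the comparisons. Among them, 6 peaks in Gel replicate 1 and 6 in Gel replicate 2 were 800 bp or less with a fold of 6 or more, and so were 12 in CuNZ@Gel replicate 1 and 9 in CuNZ@Gel replicate 2, out of 116, 103, 89 and 78 peaks of any width and fold there. No control library sets a level for these counts, and the difference between the treatments was not tested.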

How the results depend on the processing

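No difference turned direction under any alternative run. For width the direction follows from the choice of regions, because the Gel widths set both classes. The number of narrow regions followed its limits: 785 at a width limit of 600 bp, 2993 at 1000 bp, 3037 at a fold limit of 5 and 702 at 8, and 2906 to 3057 where 1 Gel library was left out of the choice. The mean difference in presence was -7.80 points at 600 bp, -3.18 at 1000 bp, -7.74 at a fold limit of 5, -2.46 at 8 and -7.07 with only peaks of −log10 q of 5 or more. Leaving out each library in turn gave -7.44 to -3.66 points, the former without Gel replicate 2. The difference in width was -591.5 bp at a width limit of 1000 bp, -459.5 and -704.5 bp at fold limits of 5 and 8, -830.5 bp without fold classes and -1006 bp with wider taken as over 1500 bp. It was -434.5 bp for regions 10 kb or more from the nearest, an alternative chosen after seeing the data, and -569 to -440.75 bp with a library left out. The difference in fold was -0.484 at a fold limit of 8, -3.39 without fold classes and -0.576 with wider over 1500 bp, and -0.450 to -0.289 with a library left out.

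Cutting the lists to equal length by score removed 0 narrow strong peaks from any list, so this alternative could not move the count and says nothing about list length or depth. With a summit height of 8 in place of the fold limit, chosen after seeing the data, the difference was 1680 peaks and 15.4 points of the share. With a library left out it was 796 to 1276 peaks and 10.4 to 15.3 points of the share. Under a replicate block, an exact sign permutation of the 2 pairs, the differences of 1036 peaks and 12.8 points had a p of 0.5, the smallest that 2 pairs can give. The labels do not say that a number marks a shared culture or day. Depth, known only through the background, limits what a missing CuNZ@Gel peak can show.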
